A study of Mus musculus with 30 samples.

Results

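The genes described here are 10 enzymes and carriers that handle sulfur after methionine has become homocysteine: the transsulfuration genes Cbs and Cth, the cysteine oxidation and taurine genes Cdo1, Csad, Ado and Slc6a6, and the sulfide and sulfite genes Mpst, Ethe1, Tst and Suox. They were taken by gene symbol from 14173 genes counted in mouse liver, and all 10 had a row and passed the filter on low counts in each comparison. The livers came from male C57BL6/J mice that arrived at 9 weeks of age, ate 1 of 5 diets for 12 weeks from 12 weeks of age, carry the age label 6 months and were fasted for 4 h. Each diet group held 10 mice, of which 6 livers were sequenced, so there were 30 libraries. Casein diets held 20% protein with 0.57 g methionine and 0.41 g cystine per 100 g (Cas-20%, n = 6) or 5% protein with 0.15 and 0.1 g (Cas-5%, n = 6). Soy diets held 20% protein with 0.22 g of each amino acid (Soy-20%, n = 6), the same protein with methionine and cystine added to 0.58 and 0.41 g (Soy-20% + SAA, n = 6), or 11.5% protein with 0.13 g of each (Soy-10%, n = 6). All mice first ate the unrestricted diet of their own protein, Cas-20% or Soy-20%, so the protein source differs in its whole amino acid pattern and in the lead-in diet. On casein and on soy, restriction lowered protein and sulfur amino acids together, and their effects cannot be told apart in those comparisons.

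Methionine that is not used for protein or methylation passes through homocysteine, which cystathionine beta-synthase (Cbs) and cystathionine gamma-lyase (Cth) turn into cysteine. Liver is a main site where spare cysteine is oxidised, by cysteine dioxygenase (Cdo1) and cysteine sulfinic acid decarboxylase (Csad), to taurine, which conjugates bile acids; Ado oxidises cysteamine to the same precursor and Slc6a6 carries taurine into cells. Sulfur also leaves cysteine as hydrogen sulfide or sulfane sulfur, which Mpst, Ethe1 and Tst handle in or near mitochondria, and sulfite oxidase (Suox) makes the final sulfate.

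Deposited totals ran from 7694015 to 14565542 counts per library, and the members' raw counts ran from 142 for Ado to 27427 for Cdo1, over all livers. Values below are the authors' normalized counts, and a slope or fold change is from edgeR's quasi-likelihood test on the raw counts, with p adjusted over all genes tested and called at 0.05 or less. Of the 6 Soy-20% + SAA libraries, 4 (livers 3 to 6) stood apart by the GC content of the last 200 bases of transcripts: their log2 level rose by 0.059 to 0.21 per 10% GC, against -0.065 to 0.031 in the other libraries. For comparisons that use this diet, values without those livers are given beside the results they move most. All 8 listed hepatocyte markers had a row. Their summed level was 65960 to 73204 CPM on Cas-20% and 77001 to 95260 on Cas-5%, without overlap. The 6 endothelial and stellate markers summed to 396 to 511 CPM on Cas-20% and 569 to 713 on Cas-5%, also without overlap. Their part in the casein result was not tested. In 1 Soy-10% liver 7 pancreatic acinar genes summed to 726 CPM, against at most 55.7 on the other 4 diets. In a piece of whole liver, fewer cells of a type and less RNA per cell cannot be told apart.

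Csad, which makes the taurine precursor hypotaurine, had the widest range. Its diet means spanned 6.90-fold on the log2 CPM scale, and 50 of 12561 genes had a wider range. On Cas-20% its normalized count was 1526 at the lowest, 2115 at the median and 3288 at the highest. On Cas-5% these values were 11165, 14472 and 19357. Every Cas-5% liver lay above every Cas-20% liver. Mean levels were 15121 ± 3093 (SD, n = 6) and 2324 ± 728 (SD, n = 6), a change of 2.72 (SE 0.189, edgeR adjusted p = 3.81e-08) in log2 or 6.58-fold, with a 95% interval from 4.99 to 8.67. On Soy-10% Csad ran from 14258 through a median of 15368 to 16819, which covers part of the Cas-5% range. On Soy-20% + SAA the lowest, median and highest values were 6154, 7791 and 11427, and on Soy-20% they were 9645, 11250 and 12067. Both soy control diets thus lay above Cas-20% in every liver and below Soy-10% in every liver.

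Csad (ENSMUSG00000023044) lies on chromosome 15 at 102176999 to 102204724 on the minus strand of GRCm38, and Mpst (ENSMUSG00000071711) lies on the plus strand of the same chromosome at 78406416 to 78414013. Tst (ENSMUSG00000044986) is the neighbour of Mpst on the other strand, at 78399556 to 78405907, and the annotated starts of this pair face away from each other across 509 bases. The sequences around 2 RefSeq starts of Csad and the most upstream of several RefSeq starts of Mpst are shown. These genes were chosen as the only members called in both the casein and the supplemented soy comparison, Csad higher in both and Mpst lower in both. The first Csad window lies wholly upstream of the gene span given above. Each window holds 250 bases before and 50 after the start (RefSeq, GRCm38.p6), written 5′ to 3′ on the gene's strand, and capitals mark a CCAAT box.
Csad, chr15:102205003-102205302, minus strand: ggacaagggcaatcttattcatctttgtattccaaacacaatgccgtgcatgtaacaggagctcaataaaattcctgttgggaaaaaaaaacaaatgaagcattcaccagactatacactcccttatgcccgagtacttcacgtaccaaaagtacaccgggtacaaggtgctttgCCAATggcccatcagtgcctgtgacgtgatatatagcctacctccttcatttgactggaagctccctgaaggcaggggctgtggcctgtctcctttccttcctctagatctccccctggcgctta
Csad, chr15:102188994-102189293, minus strand: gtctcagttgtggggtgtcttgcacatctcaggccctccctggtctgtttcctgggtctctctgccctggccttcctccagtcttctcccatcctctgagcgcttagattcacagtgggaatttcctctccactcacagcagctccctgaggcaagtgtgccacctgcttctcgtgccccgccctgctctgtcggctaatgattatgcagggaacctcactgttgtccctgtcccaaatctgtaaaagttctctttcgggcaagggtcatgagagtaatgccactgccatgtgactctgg
Mpst, chr15:78406462-78406761, plus strand: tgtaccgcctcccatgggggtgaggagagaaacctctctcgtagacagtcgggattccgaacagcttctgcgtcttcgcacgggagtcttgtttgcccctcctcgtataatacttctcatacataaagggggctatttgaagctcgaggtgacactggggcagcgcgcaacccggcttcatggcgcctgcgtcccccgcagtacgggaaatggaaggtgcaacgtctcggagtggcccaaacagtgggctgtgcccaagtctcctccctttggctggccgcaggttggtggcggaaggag
Of the 10 members 9 were looked up (Cdo1 was not), and RefSeq windows were found for 6, 10 windows in all, and 4 motifs were searched on both strands. No match overlapped another. The CCAAT box occurred in 5 of the 10 windows, and in 37.4% of all 32851 windows of the same length. The nuclear receptor half-site AGGTCA occurred in none of the 10, and in 16.3% of all. The composite element TGATGNAA, read by ATF4 and C/EBP partners, occurred in none of the 10, and in 3.97% of all. The TATAAA box occurred in none of the 10, and in 13.6% of all. A letter match describes the window only, and reads from the 3′ end of transcripts do not show which start was used.

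**Figure D1:**
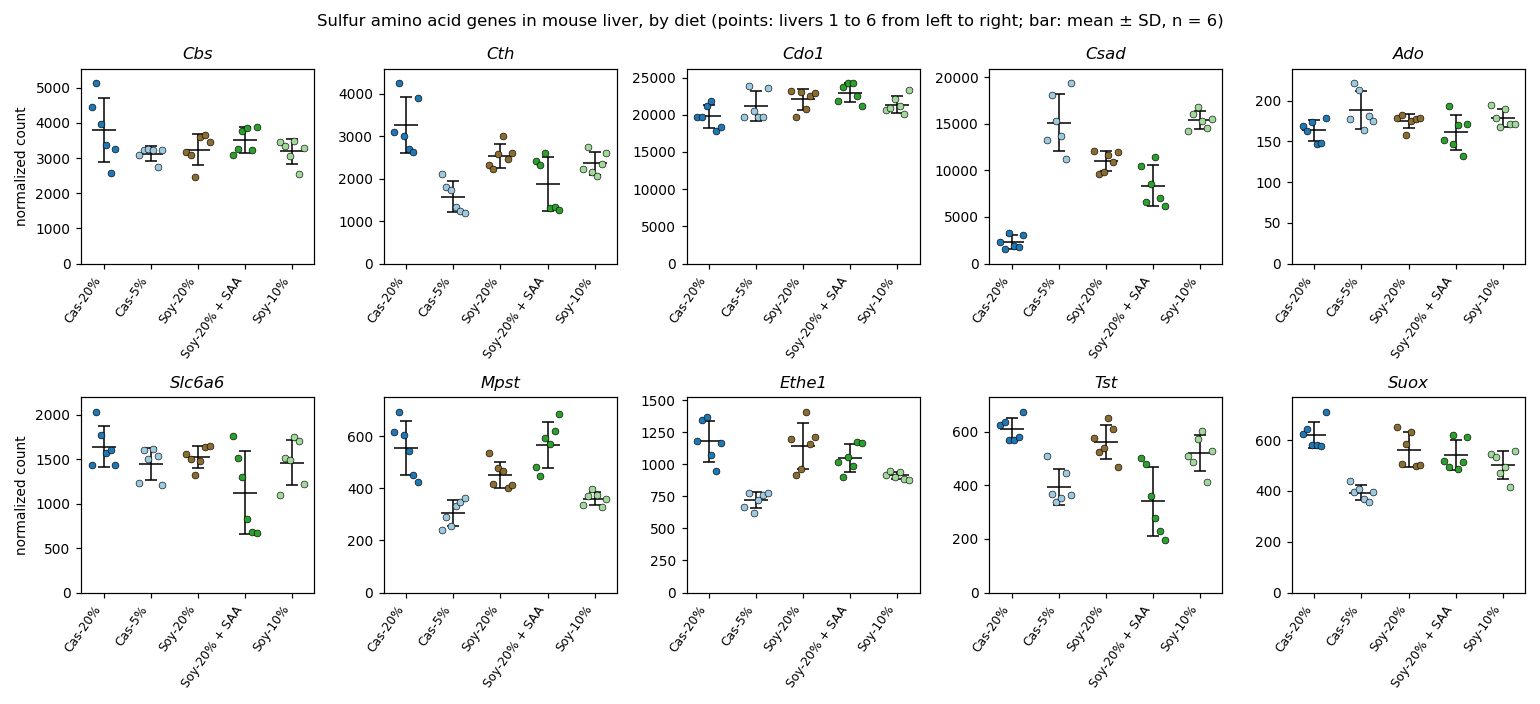
Normalized counts of the 10 genes in every liver, 1 panel per gene and 1 column per diet, with points for livers 1 to 6 and bars for the mean ± SD (n = 6). Csad was lowest on Cas-20% (1526 to 3288) and the Soy-20% + SAA livers were spread widely for Cth, Tst and Slc6a6.

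Casein restriction moved Csad in one direction and the sulfide genes in the other. Of the 10 members 6 were called: 1 rose and 5 fell, against 24.9% of 12076 genes called in this comparison (11.6% higher and 13.3% lower). The median change over the members was -0.44 in log2, and over all genes tested it was 0.02. Cth, which cleaves cystathionine to cysteine, ran from 2618 through a median of 3048 to 4251 on Cas-20% and from 1195 through 1539 to 2108 on Cas-5%. The groups did not overlap. The mean fell from 3260 ± 662 to 1572 ± 369 (SD, n = 6 each), a change of -1.04 (SE 0.15, edgeR adjusted p = 8.25e-05).

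The sulfide and sulfite genes fell together on Cas-5%. Mpst, which moves sulfur from 3-mercaptopyruvate, ran from 425 through a median of 575 to 693 on Cas-20% and from 240 through 311 to 362 on Cas-5%. Its change was -0.85 (SE 0.128, edgeR adjusted p = 0.000118), from means of 556 ± 103 to 304 ± 49.8 (SD, n = 6 each). Ethe1, the mitochondrial persulfide dioxygenase, had values from 951 through 1174 to 1367 on Cas-20% and from 624 through 739 to 779 on Cas-5%. The groups of both genes were separate. Ethe1 changed by -0.70 (SE 0.09, edgeR adjusted p = 2.72e-05). Tst, the thiosulfate sulfurtransferase also called rhodanese, ran from 568 through 602 to 673 on Cas-20% and from 336 through 365 to 508 on Cas-5%. No liver of one diet entered the range of the other, and the change was -0.61 (SE 0.0956, edgeR adjusted p = 0.000186). Suox, which oxidises sulfite to sulfate, ran from 576 through 603 to 711 on Cas-20% and from 354 through 395 to 440 on Cas-5%. This was again without overlap, with a change of -0.64 (SE 0.0723, edgeR adjusted p = 6.8e-06).

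Cbs, Cdo1, Ado and Slc6a6 did not pass the test on casein. Cbs, the first transsulfuration enzyme, differed by -0.26 in log2 (95% interval -0.53 to 0.0034, edgeR adjusted p = 0.141), and its Cas-20% livers spread from 2578 to 5133. Without Cas-20% liver 5, which held the lowest of these values, the Cbs difference was -0.36 and was called (edgeR adjusted p = 0.0218). Cdo1, the enzyme that commits cysteine to oxidation, ran from 17877 to 21803 on Cas-20% and from 19712 to 23890 on Cas-5%. Its difference was 0.11 with a 95% interval from -0.05 to 0.28. The intervals were 0.03 to 0.41 for Ado (edgeR adjusted p = 0.085) and -0.38 to 0.04 for the taurine transporter Slc6a6 (edgeR adjusted p = 0.245).

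**Figure D2:**
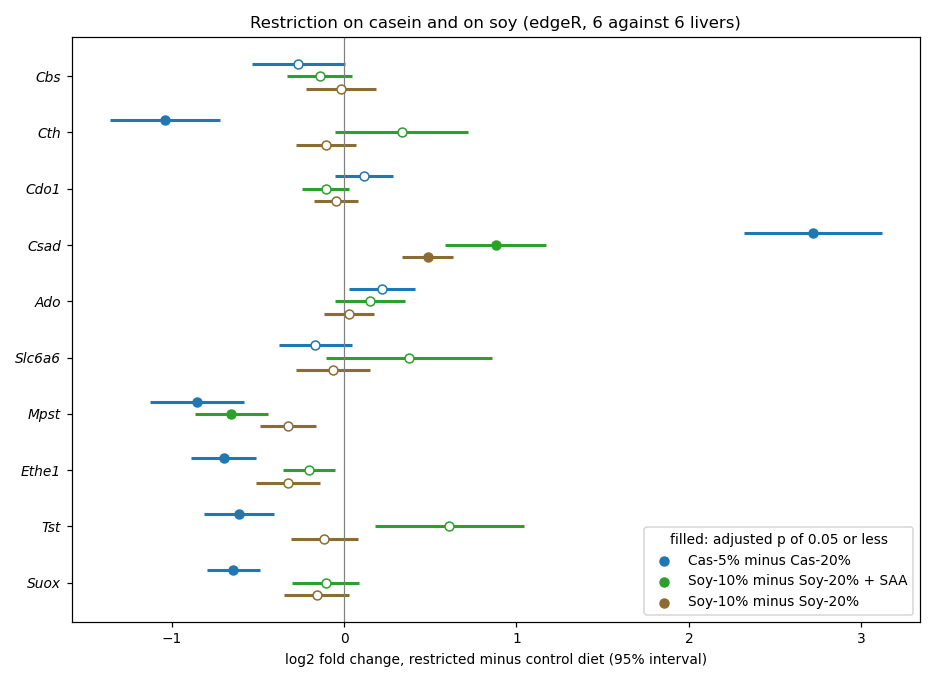
Log2 fold changes of the 10 genes (points, filled where the edgeR adjusted p is 0.05 or less) with 95% intervals (lines), for Cas-5% minus Cas-20% and for Soy-10% minus each soy control diet. Csad lies right of 0 in all 3 comparisons (2.72, 0.88 and 0.49), and Cth lies at -1.04 on casein.

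Soy restriction was read against a control whose methionine and cystine matched those of Cas-20%. Soy-10% against Soy-20% + SAA called 2 of the 10 members, 1 higher and 1 lower, against 17.0% of 11983 genes (8.51% higher and 8.47% lower). Csad rose from 8367 ± 2152 to 15408 ± 948 (SD, n = 6 each), a change of 0.88 (SE 0.136, edgeR adjusted p = 0.00127) or 1.84-fold, with a 95% interval from 1.5 to 2.25. Mpst ran from 447 through 582 to 683 on Soy-20% + SAA and from 327 through 365 to 396 on Soy-10%. The diets did not overlap, and the change was -0.65 (SE 0.0989, edgeR adjusted p = 0.00111). With Soy-20% + SAA livers 3 to 6 left out, Csad changed by 0.85 (edgeR adjusted p = 0.0066) and Mpst by -0.37 (edgeR adjusted p = 0.047), both still called with livers 1 and 2 as the control.

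The other 8 members were not called in the supplemented soy comparison. Tst differed by 0.61 (SE 0.202, edgeR adjusted p = 0.0502), just above the threshold. It was called in 4 other fits (0.61 to 0.68) and without Soy-20% + SAA liver 1 or liver 2 (0.76 and 0.74). Without livers 3 to 6 the difference was 0.07 (edgeR adjusted p = 0.817). Ethe1 differed by -0.20 (edgeR adjusted p = 0.0609), and by -0.24 without Soy-20% + SAA liver 2, where it was called (edgeR adjusted p = 0.0213). Cth differed by 0.33 (95% interval -0.05 to 0.72), against -0.01 without livers 3 to 6. Slc6a6 differed by 0.38 (95% interval -0.10 to 0.86), against -0.17 without them. The remaining intervals were -0.33 to 0.05 for Cbs, -0.24 to 0.03 for Cdo1, -0.05 to 0.35 for Ado and -0.30 to 0.09 for Suox.

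The unsupplemented Soy-20% diet gave the same step in protein and a smaller step in methionine and cystine. Against it, 1 of the 10 members was called, beside 0.866% of 11897 genes (0.319% higher and 0.546% lower). This comparison shares the Soy-10% livers with the one before it. Csad rose from 10996 ± 1090 to 15408 ± 948 (SD, n = 6 each), a change of 0.49 (SE 0.0707, edgeR adjusted p = 0.00266) or 1.40-fold. In a fit over all 30 livers, which share 1 estimate of the spread, the same 0.49 was not called (edgeR adjusted p = 0.227). Mpst had 400 to 534 on Soy-20%, just above the 327 to 396 on Soy-10%. The Mpst difference of -0.32 (SE 0.0772, edgeR adjusted p = 0.0643) was called without Soy-20% liver 5 (-0.35, edgeR adjusted p = 0.0424). Ethe1 differed by -0.32 (SE 0.0867, edgeR adjusted p = 0.104), and was called without Soy-20% liver 2 (-0.38, edgeR adjusted p = 0.0337) or liver 3 (-0.37, edgeR adjusted p = 0.0435).

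Adding methionine and cystine to the 20% soy diet held protein constant. No member was called by edgeR in Soy-20% + SAA against Soy-20%, and 0.00838% of 11932 genes were called, which is 1 gene. At an unadjusted p under 0.05 there were 4 members, where 24.2% of all genes tested were under it. DESeq2 called 1 of them, Tst, beside 873 of 14173 genes. Csad was 8367 ± 2152 with the supplement and 10996 ± 1090 without it (SD, n = 6 each), a difference of -0.40 (95% interval -0.71 to -0.10, edgeR adjusted p = 0.112). Mpst was 566 ± 88.0 and 451 ± 51.4 (SD, n = 6 each), a difference of 0.32 (95% interval 0.09 to 0.55, edgeR adjusted p = 0.0997). Tst had -0.73 (95% interval -1.17 to -0.30, edgeR adjusted p = 0.0748) and Cth -0.44 (95% interval -0.84 to -0.05, edgeR adjusted p = 0.161). Without livers 3 to 6 the differences were 0.045 for Mpst (edgeR adjusted p = 0.96), -0.19 for Tst (0.799), -0.094 for Cth (0.899) and -0.37 for Csad (0.727), and no member was called. Leaving out Soy-20% + SAA liver 1 called 4 members (Csad, Mpst, Tst and Slc6a6), but also 1587 genes or 13.3% of all. Leaving out liver 2 called 2 (Mpst and Tst), beside 1118 genes or 9.27% of all.

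Cth, Tst and Slc6a6 varied most among the Soy-20% + SAA livers. Cth was 2324 to 2597 in livers 1 to 3 and 1255 to 1339 in livers 4 to 6. Tst was 502, 478, 358, 276, 228 and 197 in livers 1 to 6, and Slc6a6, in the same livers, was 1757, 1515, 1297, 826, 680 and 673. The coefficients of variation were 33.9%, 37.8% and 41.2%, against at most 23.4%, 17.0% and 17.6% in the other diets for the same genes. Ado also had its highest coefficient of variation on this diet, 13.5%, against at most 12.3% on the others. The last 200 bases of the longest coding transcript held 23% GC in Cth and 31% in Slc6a6, percentiles 1.25 and 16.8 of all genes, at the low end. Tst held 53.5%, percentile 93.0, and its mean in livers 3 to 6 was 0.541 of that in livers 1 and 2. The same ratio was 1.33 for Mpst, at 53% GC, and 0.973 for Csad, at 41%. The part of the GC trend in these levels was not tested.

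**Figure D3:**
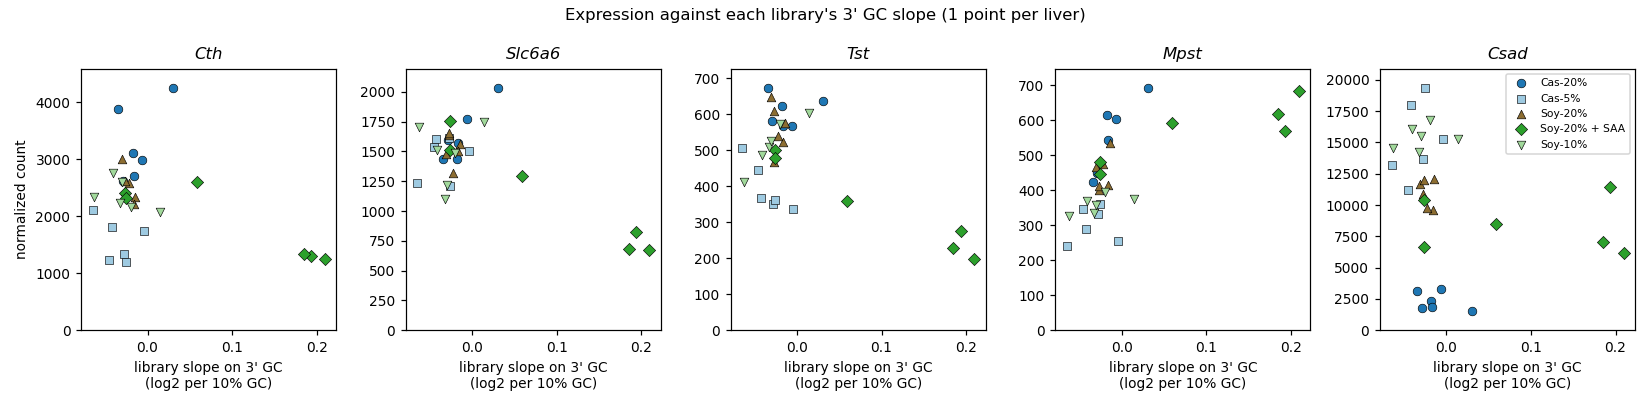
Normalized count of 5 genes in each of the 30 livers (points, marked by diet) against the library's slope of expression on 3′ GC content (log2 per 10% GC). Livers 4 to 6 of Soy-20% + SAA lie at slopes from 0.18 to 0.21 with Cth from 1255 to 1339 and Slc6a6 from 673 to 826.

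Protein source was compared at matched methionine and cystine, with protein percent matched at the high level only. At the high level, Soy-20% + SAA against Cas-20% called 2 members, 1 higher and 1 lower, against 2.43% of 11988 genes (1.01% higher and 1.42% lower). Csad was higher on soy by 1.85 (SE 0.208, edgeR adjusted p = 0.00108) or 3.60-fold (95% interval 2.65 to 4.89), and 6 of 6 soy livers lay above all casein livers. It was called with 1.88 (edgeR adjusted p = 0.0385) without livers 3 to 6. Tst was lower by 0.84 in log2 on soy (edgeR adjusted p = 0.0441). That call ended without livers 3 to 6, where the difference was -0.31 (edgeR adjusted p = 0.584), and with the GC slope as a covariate, where it was -0.41 (edgeR adjusted p = 0.209). Cth differed by -0.80 (SE 0.203, edgeR adjusted p = 0.051), with all soy livers below all casein livers, and by -0.46 (edgeR adjusted p = 0.643) without livers 3 to 6. It was called by DESeq2 (adjusted p = 0.00541), with the replicate number as a block (-0.85, edgeR adjusted p = 0.0485) and in a fit over all 30 livers (edgeR adjusted p = 0.00222). Mpst was level, at 566 and 556, with a difference of 0.02 and a 95% interval from -0.25 to 0.30.

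At the low level, Soy-10% against Cas-5% called 4 members, all 4 higher on soy, against 10.7% of 12041 genes (6.14% higher and 4.59% lower). Soy-10% held 11.5% protein and Cas-5% held 5%, so protein source and protein amount cannot be told apart here. Cth was 2360 ± 265 on Soy-10% and 1572 ± 369 on Cas-5% (SD, n = 6 each), a difference of 0.57 (SE 0.123, edgeR adjusted p = 0.0061), and 5 of 6 soy livers lay above all casein livers. The sulfide and sulfite genes Tst, Suox and Ethe1 were higher by 0.37, 0.34 and 0.32 (edgeR adjusted p = 0.0283, 0.00849 and 0.00246). Tst overlapped between the diets, Ethe1 was higher in 6 of 6 livers than in all Cas-5% livers, and Suox in 5 of 6. In a fit over all 30 livers, Tst was 0.38 and not called (edgeR adjusted p = 0.148). For Csad the means were 15408 ± 948 on Soy-10% and 15121 ± 3093 on Cas-5% (SD, n = 6 each), a difference of 0.01 with a 95% interval from -0.21 to 0.23.

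The difference between the restriction effects was tested directly in 24 livers, as casein restriction minus soy restriction with Soy-20% + SAA as the soy control. Protein fell from 20% to 5% on casein and from 20% to 11.5% on soy. Protein source and depth of the protein cut therefore cannot be told apart in this contrast. The same contrast is the source difference at the high level minus that at the low level. It called 5 of the 10 members, 1 higher and 4 lower, against 8.69% of 12532 genes (3.20% higher and 5.49% lower). Csad rose 1.83 more in log2 on casein (SE 0.244, edgeR adjusted p = 0.000118). Cth differed by -1.38 (SE 0.254, edgeR adjusted p = 0.00229), with a fall of 1.04 on casein beside the uncalled 0.33 on soy. Suox and Ethe1 differed by -0.54 and -0.50 (edgeR adjusted p = 0.0061 and 0.0102). Tst differed by -1.22 (SE 0.236, edgeR adjusted p = 0.00318), which was -0.69 (edgeR adjusted p = 0.0288) with livers 3 to 6 left out and -0.50 (edgeR adjusted p = 0.0293) with Soy-20% as the control. With Soy-20% as the control Cth was -0.94 and called (edgeR adjusted p = 0.00189), Ethe1 was -0.38 and not called (edgeR adjusted p = 0.0792), and Mpst, which had not been called at -0.20, was -0.53 and called (edgeR adjusted p = 0.0413).

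Across all 5 diets the members were fitted against the log2 of methionine plus cystine, with protein source as a covariate. The sums were 0.25, 0.26, 0.44, 0.98 and 0.99 g per 100 g on Cas-5%, Soy-10%, Soy-20%, Cas-20% and Soy-20% + SAA. Each of the 30 livers counted as a unit, although sulfur was set by diet. The p-values therefore do not measure how well 5 diets fit a line. The trend called 5 members, against 31.4% of 12561 genes (16.1% higher and 15.3% lower with more sulfur): Csad and Ado were lower with more sulfur, and Mpst, Ethe1 and Suox were higher. Csad changed by -0.90 per doubling (SE 0.106, edgeR adjusted p = 7.76e-08) and Mpst by 0.38 (SE 0.0423, edgeR adjusted p = 2.54e-08). The Csad slope was -0.45 without Cas-20% and -0.45 without Cas-5%, and that of Mpst was 0.33 and 0.33, all still called. With protein source as a covariate, a casein diet left alone adds nothing to the slope. Both fits therefore take their slope from the same soy livers, Soy-20% + SAA livers 3 to 6 included, and are not separate checks. Mpst means followed the diet levels in order on soy, 360 ± 25.8, 451 ± 51.4 and 566 ± 88.0 (SD, n = 6 each) on Soy-10%, Soy-20% and Soy-20% + SAA. The step from Soy-20% to Soy-20% + SAA lay in livers 3 to 6, whose Mpst mean was 617, against 464 in livers 1 and 2. Without livers 3 to 6 the Mpst slope was 0.36 and called (edgeR adjusted p = 1.99e-06). Ethe1, Suox and Ado had slopes of 0.23, 0.19 and -0.10 (edgeR adjusted p = 0.000234, 0.000491 and 0.0141). The Ado call ended without livers 3 to 6 (-0.083, edgeR adjusted p = 0.0599) and with the GC slope as a covariate (-0.092, edgeR adjusted p = 0.0508). In the same slopes from soy livers, without Cas-20% or Cas-5%, Ado (-0.085 and -0.080), Suox (0.041 and 0.046) and Ethe1 (0.081 and 0.086) were not called. Their edgeR adjusted p ran from 0.16 to 0.559. Cbs had 0.11 (edgeR adjusted p = 0.0502), Cdo1 -0.0022 with a 95% interval from -0.05 to 0.05, and Slc6a6 -0.06 with an interval from -0.20 to 0.08.

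Cth and Tst depended on the Soy-20% + SAA diet and on the casein diets in this trend. Cth was 0.19 (edgeR adjusted p = 0.124) and was called at 0.37 without livers 3 to 6. Tst was 0.0033 (edgeR adjusted p = 0.983) and was called at 0.21 without them. In the fits without Cas-20% or Cas-5%, whose slopes rest on the soy livers, Cth turned to -0.20 and -0.19 and was not called. Tst also turned negative there and was called. Protein content moved with sulfur over the diets. With the log2 protein percent as a further covariate, 4 of the 5 calls ended: Csad was -0.15 (edgeR adjusted p = 0.491), Suox -0.085 (0.374), Ethe1 -0.093 (0.364) and Ado -0.087 (0.355). Mpst was 0.27 and called (edgeR adjusted p = 0.0213), Cth was -0.50 and called (edgeR adjusted p = 0.00899), Tst was -0.68 and called (edgeR adjusted p = 0.000539), and Slc6a6 was -0.38 and called (edgeR adjusted p = 0.0351). In that fit only the Soy-20% and Soy-20% + SAA diets differ in sulfur at 1 protein percent and 1 protein source. Without livers 3 to 6 the difference between these diets was 0.045 (Mpst), -0.094 (Cth), -0.19 (Tst) and 0.10 (Slc6a6), none called. The fit with protein percent was not run without those livers.

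**Figure D4:**
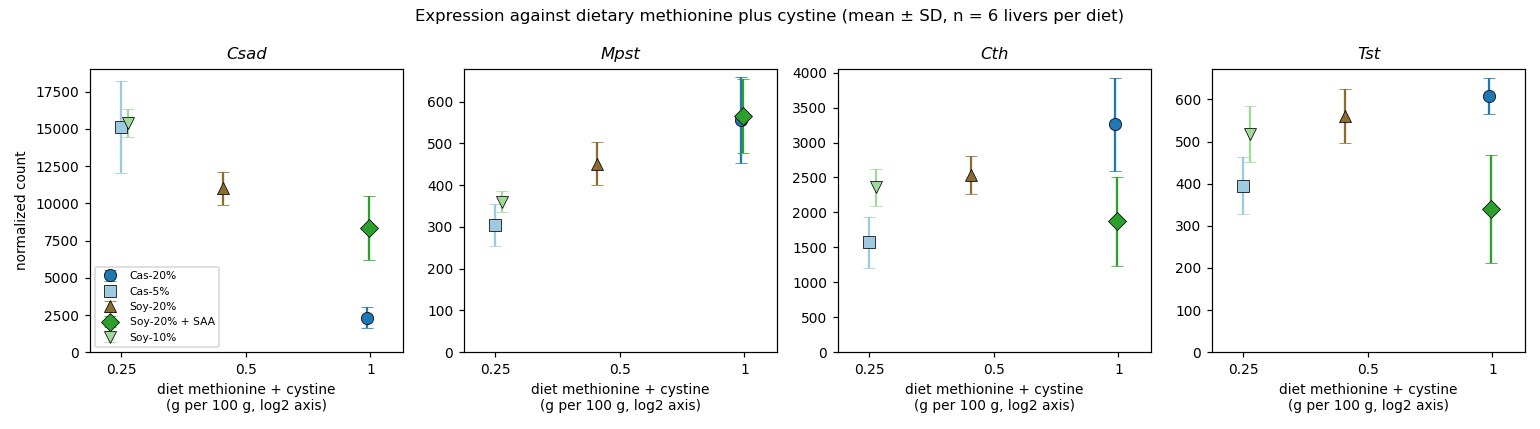
Mean normalized count ± SD (n = 6 livers) of Csad, Mpst, Cth and Tst against dietary methionine plus cystine (g per 100 g, log2 axis). Csad goes down from about 15121 and 15408 on the restricted diets to 2324 on Cas-20% and 8367 on Soy-20% + SAA, while Mpst goes up to 556 and 566.

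Cbs, Cdo1 and Ado had the narrowest ranges. Cbs diet means spanned 1.18-fold, Cdo1 1.16-fold and Ado 1.18-fold on the log2 CPM scale. Neighbouring diets overlapped in every pair when ordered by mean, as they also did for Cth, Tst, Suox and Slc6a6. The spans were 2.07-fold for Cth, 1.89-fold for Tst, 1.84-fold for Mpst, 1.62-fold for Ethe1, 1.56-fold for Suox and 1.56-fold for Slc6a6. In the order of diet means for Csad, Cas-20% was below the next diet without overlap, while Soy-20% + SAA overlapped Soy-20%, Soy-20% overlapped Cas-5% and Cas-5% overlapped Soy-10%.

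Other genes of sulfur metabolism, a list of 32 of which 27 had a row and 26 were tested, moved as follows. Casein restriction called 17 (5 higher, 12 lower), where 24.9% of all genes were called, and soy restriction against Soy-20% + SAA called 13 (4 higher, 9 lower), where 17.0% were, with list medians of -0.26 and -0.17 beside 0.02 and -0.01 over all genes. Called in both with the same sign were Bhmt (-2.69 and -1.76), Gnmt (-1.68 and -0.75) and Mat1a (-0.33 and -0.46) of methionine metabolism, Got1 (-2.02 and -0.78) and Got2 (-0.48 and -0.48), which transaminate cysteine and its sulfinate, and Papss2 (-1.05 and -0.79) and Slc26a1 (-0.55 and -0.49), which activate and carry sulfate. Tstd1 (-1.04 and -0.68), a sulfurtransferase, and Selenbp1 (-0.83 and -0.57), a methanethiol oxidase, fell in both, while Gclc (0.58 and 0.61) and Gclm (0.34 and 0.37), the glutamate-cysteine ligase subunits of glutathione synthesis, rose in both. Sqor, Tstd3, Ahcy, Kyat1, Kyat3 and Gss were also called on casein (-0.43, -0.81, -0.73, 0.35, 0.57 and 0.77). Baat, which joins bile acids to taurine or glycine, and the cystine carrier subunit Slc3a1 were also called on soy (0.72 and 0.70), but differed by 0.054 and -0.063 against Soy-20% (edgeR adjusted p = 0.818 and 0.939). Without Soy-20% + SAA livers 3 to 6, soy restriction called 5 of the 26, where 2.54% of all genes were called. Bhmt (-1.34), Gnmt (-0.60), Tstd1 (-0.71) and Papss2 (-0.53) were 4 of the 13 above, and Gss (0.51) was added. Baat was then 0.24 and Slc3a1 0.69, neither called (edgeR adjusted p = 0.249 and 0.116). The supplement called none of the 26 by edgeR, the unsupplemented soy comparison 4 (0.866% of all genes), protein source 1 at the high level (2.43%) and 8 at the low level (10.7%), the difference of restrictions 7 (1 higher and 6 lower, 8.69%) and the trend 18 (12 higher and 6 lower with more sulfur, 31.4%).

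The genes whose level over the 30 livers was most like that of Csad were Unc13b (Pearson's r = 0.899), Ephx1 (0.893) and Retsat (0.889) among 12560 others, on the log2 CPM scale. For Cth, the member with the next widest range, they were Aass (0.881), Map2k3 (0.851) and Dpyd (0.848). Retsat had diet means of 2094 on Cas-20% and 5094 on Cas-5%, and of 5178, 4156 and 3447 on Soy-10%, Soy-20% and Soy-20% + SAA. Aass had 2350 and 989 on the casein diets, and 1480, 1668 and 1487 on the soy diets in that order. The genes were measured in the same livers, which differ in diet, so these values describe likeness and nothing more.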

How the data were processed

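RNA from 30 livers of 5 diets was made into 3′ tag libraries (QuantSeq, forward) and sequenced on 1 strand. The authors mapped and counted reads with a vendor pipeline on GRCm38 (mm10) and deposited raw gene counts, one table for all livers. They also deposited normalized counts (unit: signal, counts divided by DESeq2 size factors), which here give levels only. Per the labels' processing notes they used R 4.0.3 and DESeq2 1.30. The read length is given differently in the labels and in the methods and was not used. The authors' fold changes and p-values were not used here.

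Members were the rows whose gene symbol is in the list. The members and the list of other sulfur genes were chosen with earlier results of these data known. Raw counts were tested with edgeR 4.0.16 (quasi-likelihood F test, filterByExpr, TMM, two-sided, Benjamini-Hochberg over all genes tested, called at 0.05) in R 4.3.3, with only the diets compared in each fit, 24 livers for the difference of restrictions and 30 for the trend. Tests of casein restriction, soy restriction, their difference and the trend were checked on simulated counts that held no 3′ GC trend. They called 97.95%, 92.31%, 82.65% and 100% of the genes changed, in that order. Text names all 10 members, genes of the other sulfur list by counts and those called in the casein or soy comparison, and the 3 genes most like the 2 members with the widest range among members with a mean of at least 100 normalized counts (log2 CPM, prior count 2). Alternatives were DESeq2 1.42.0, its size factors, no filter, a replicate block, all livers in 1 fit, the libraries' 3′ GC slope (from genes with a mean of at least 20 normalized counts), leaving out livers 3 to 6 of Soy-20% + SAA and leaving out each liver in turn (not run for protein source or the trend). Labels give replicate numbers within each diet but no shared litter, batch or day. Over 10693 genes, same-numbered livers deviated together (correlation over 0.1) in 0 to 2 of 6 pairs per comparison, so the numbers were not used to pair livers. No library pair within a diet was a duplicate: over 75 pairs the lowest mean chi-square per gene was 6.68.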

Additional observations from a re-analysis of the deposited data

Results flagged for a closer look

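In 50 sets of 6 livers (10 genes on 5 diets), the lowest or highest liver lay farther from the others than Dixon's criterion allows in 2 sets, where chance gives about 5% of sets. Cbs in Cas-5% liver 5 had 2735 normalized counts, and the next lowest liver had 3085. Ado in Soy-20% liver 3 had 157.8, and the next lowest had 174.5. Leaving out Cas-5% liver 5 did not call Cbs on casein.

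The restriction effect differed between casein and soy for 5 members in edgeR's test of the difference (log2, casein minus soy). Protein was cut to 5% on casein and to 11.5% on soy. The values were 1.83 for Csad (edgeR adjusted p = 0.000118), -1.38 for Cth (0.00229), -1.22 for Tst (0.00318), -0.54 for Suox (0.0061) and -0.50 for Ethe1 (0.0102). With Soy-20% + SAA livers 3 to 6 left out the values were 1.86, -1.03, -0.69, -0.63 and -0.63, all called. Csad rose 6.58-fold on casein, from 2324 to 15121, and 1.84-fold on soy, from 8367 to 15408.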

How the results depend on the processing

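Of 620 member results refitted under alternatives other than leaving out single livers, 540 kept their direction and side of the threshold, 16 lost and 25 gained a call and 39 turned direction. All 60 casein results kept both. The labels state no pairing. With the replicate block, members called were 6 on casein, 3 on soy, 1 against Soy-20%, 0 for the supplement, 2 and 4 for protein source at high and low sulfur, 5 for the difference of restrictions and 5 for the trend. Over all genes the block called 2656 of 12076 on casein, 2014 of 11983 on soy and 80 of 11897 against Soy-20%. It called 1 of 11932 for the supplement, and 141 of 11988 and 1370 of 12041 for protein source at high and low sulfur. For the difference it called 1272 of 12532 and for the trend 3813 of 12561. The block ended the call of Tst at high sulfur (-0.92, edgeR adjusted p = 0.0508) and gained that of Cth (-0.85, edgeR adjusted p = 0.0485).

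The count of called members changed by more than 1.5 times in these cases. Against Soy-20%, DESeq2 called 3 (Csad, Mpst and Ethe1) and the fit of all 30 livers 0. For the supplement DESeq2 and that fit each called 1. For protein source at high sulfur DESeq2 called 4, that fit 5, and leaving out Soy-20% + SAA livers 3 to 6 or adding the GC slope 1. For the trend, leaving out Cas-20% or Cas-5% called 3 members, beside 3094 of 12465 and 2951 of 12397 genes. Both of these slopes rest on the same soy livers. Leaving out single livers gave 6 to 7 members called on casein, 2 to 4 on soy (4 without Soy-20% + SAA liver 2), 1 to 2 against Soy-20%, 0 to 4 for the supplement and 5 to 6 for the difference. Over all genes, soy restriction called 2035, against 317 without livers 3 to 6, 365 with the GC slope and 3077 in the fit of all livers. Protein source at high sulfur called 291, against 3, 5 and 2331 in these fits, 1135 by DESeq2 and 141 with the replicate block. The difference of restrictions called 1089, against 296 without those livers and 579 with the GC slope. Against Soy-20% there were 103, against 217 by DESeq2 and 62 in the fit of all livers. The supplement called 1 gene, against 873 by DESeq2, 1793 in the fit of all livers and 2 with DESeq2's size factors or no filter. The trend called 3939, and 2571 with protein percent added. Leaving out single livers gave 1219 to 3119 genes on soy (3119 without Soy-20% + SAA liver 1, 1219 without liver 5), 50 to 146 against Soy-20% (50 without Soy-10% liver 5), 0 to 1587 for the supplement (1587 and 1118 without Soy-20% + SAA livers 1 and 2) and 719 to 1941 for the difference (1941 without Soy-20% + SAA liver 1, 719 without liver 4). Of the 26 other sulfur genes, leaving out livers 3 to 6, an alternative chosen after seeing the data, called 5 on soy (13 with all livers), 0 for protein source at high sulfur (1), 5 for the difference (7) and 18 for the trend (18). The cause was not tested.

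Values that turned direction were uncalled except for Cth and Tst in the trend. Without livers 3 to 6, they were 0.0045 (Cbs), -0.012 (Cth) and -0.17 (Slc6a6) on soy, -0.027 (Cbs) and 0.10 (Slc6a6) for the supplement, 0.082 (Ado) and -0.26 (Mpst) for protein source at high sulfur, and 0.085 (Slc6a6) for the trend. With the GC slope, they were -0.15 (Cth) and -0.15 (Slc6a6) on soy, 0.030 (Cth) and 0.11 (Slc6a6) for the supplement, 0.020 (Ado) and -0.22 (Mpst) at high sulfur, -0.012 (Cbs) and -0.0049 (Csad) at low sulfur, and 0.10 (Slc6a6) for the trend. At low sulfur Cdo1 was 0.0030 and 0.0049, and Slc6a6 0.0028 and 0.0050, by DESeq2 and in the fit of all livers. Against Soy-20%, leaving out single livers gave -0.087 to 0.039 for Cbs and -0.12 to 0.0088 for Slc6a6.

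In the trend, with protein percent added, slopes were -0.50 (Cth), 0.079 (Cdo1), -0.085 (Suox), -0.093 (Ethe1) and -0.68 (Tst). Without Cas-20% or Cas-5%, fits whose slopes rest on the same soy livers, Cth was -0.20 and -0.19, Tst -0.35 and -0.34 (both called), and Cdo1 0.049 and 0.054. Cdo1 was 0.00039 with DESeq2's size factors, 0.00069 by DESeq2 and 0.0014 with methionine alone. Tst was -0.0010 with the replicate block, -0.058 on the linear scale and -0.025 with methionine alone. Slc6a6 was 0.085 without the Soy-20% + SAA diet.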
